A study of Mus musculus with 7 samples.

Results

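The nicotinic acetylcholine receptor of muscle and the proteins that gather it at the neuromuscular junction were followed in C2C12 muscle cells incubated with exosomes for 24 h. The set holds 10 genes, namely the receptor subunits Chrna1, Chrnb1, Chrnd, Chrne and Chrng, the clustering genes Musk, Lrp4, Dok7 and Rapsn, and Ache. Every non-control probe that the array annotation gives to one of these genes was used, which were 12 of 39429 probes, and the 10 genes are among 31829 gene names on the array. C2C12 is a mouse muscle line whose myoblasts fuse into myotubes on differentiation. The array labels give the recipient cells as myoblasts, whereas the paper speaks of differentiated myotubes. Donor C2C12 cells had been treated with 0.5 mmol/l palmitate or with its carrier BSA, and their exosomes, collected 9 h after palmitate was removed, are called EXO-Post Palm and EXO-Post BSA. RNA from 4 recipient cultures given EXO-Post BSA and 3 given EXO-Post Palm was hybridised to one-colour arrays, 100 ng per labelling. The sources describe muscle cells cultured alone, with no motor neuron. The cell line is C2C12 in the methods and source names, while the cell line field of the labels counts upwards from that name down the samples, and the samples were taken as C2C12. All values are log2 signals relative to the 75th percentile of their own array, where 0 is that percentile, and levels of different probes cannot be set against each other.

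The muscle receptor is a pentamer with a pair of alpha subunits (Chrna1), a beta (Chrnb1) and a delta (Chrnd). Its remaining place is taken by gamma (Chrng) in fetal and denervated muscle and by epsilon (Chrne) in adult innervated muscle. Nerve-derived agrin binds Lrp4, which activates the kinase MuSK (Musk). MuSK works with the adaptor Dok7, and rapsyn (Rapsn) then anchors the receptors in clusters, while acetylcholinesterase (Ache) ends the signal by hydrolysing acetylcholine. In muscle cells the receptor subunit genes are switched on during differentiation by E-box binding factors of the MyoD family, whose core site reads CANNTG. Subsynaptic nuclei of adult muscle also use the N-box, CCGGAA or TTCCGG on the opposite strand, which binds the ETS factor GABP. Chrnd and Chrng lie next to each other in the order of protein-coding genes on mouse chromosome 1.

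Because the fetal and adult subunits are the pair on which the comparison turns, their upstream sequences are shown first, as the RefSeq entries of build GRCm38.p6 give them. Each runs 5′ to 3′ on the gene's own strand, from 250 bases before the annotated start to 50 bases after it. Capitals mark the E-box CAGCTG and the N-box. The Chrng entry lies at chr1:87205561-87205860 on the plus strand, and that of Chrne at chr11:70619145-70619444 on the minus strand.
Chrng: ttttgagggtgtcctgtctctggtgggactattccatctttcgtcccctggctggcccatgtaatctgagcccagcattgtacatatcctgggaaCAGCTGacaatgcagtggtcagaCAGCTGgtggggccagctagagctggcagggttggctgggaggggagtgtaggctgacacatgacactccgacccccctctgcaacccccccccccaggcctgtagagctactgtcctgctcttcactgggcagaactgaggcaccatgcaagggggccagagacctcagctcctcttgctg
Chrne: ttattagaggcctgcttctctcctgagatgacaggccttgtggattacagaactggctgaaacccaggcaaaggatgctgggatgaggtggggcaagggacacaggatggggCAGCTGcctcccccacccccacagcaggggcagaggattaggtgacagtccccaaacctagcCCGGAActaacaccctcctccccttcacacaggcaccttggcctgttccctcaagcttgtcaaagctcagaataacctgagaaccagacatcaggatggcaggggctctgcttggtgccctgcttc

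The Chrng window held CAGCTG at 2 places, with first bases at -155 and -132 counted from the start, and no N-box. The Chrne window held CAGCTG once, at -138, and 1 N-box at -76. Of the 10 genes, 7 had an entry. Among these, Chrna1 also had CAGCTG at 2 places and Musk had it once. Chrne alone of the 7 held an N-box. Over 32851 RefSeq windows of this length, 16.3% held CAGCTG and 1.9% held it at 2 or more places. An N-box was found in 14.9% and CANNTG, which includes CAGCTG, in 72.3%. Both strands were searched. A match describes these letters only and is not evidence of binding, and a window without a match says nothing of the factor.

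The Chrng probe A_51_P288010 lies between chr1:89106072-89106353 (mm9, plus strand), and its 60 bases are spread over 282, so it crosses a splice junction. Chrne was read by 1 probe, A_55_P2180470.

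None of the members passed the threshold of an adjusted p under 0.05 (limma, Benjamini-Hochberg over 21585 tested probes). Of these 12 probes 11 were bright enough to be tested, and 0 were called, against 0.533% of all tested probes. The lowest adjusted p was 0.285. At an unadjusted p under 0.05 (limma) 2 probes were lower with EXO-Post Palm, those of Chrna1 and Lrp4, against 5.19% of all tested probes, and 0 were higher, against 4.86%. The methods' t-test gave 1 without adjustment, Lrp4, and 0 after it. The groups did not overlap for 2 tested probes, Lrp4 lower and Chrng higher with EXO-Post Palm, against 11.3% of all tested probes. Among the 11, 8 had a lower mean with EXO-Post Palm and 3 a higher one, where 47.3% of all tested probes were higher. The median difference was -0.35, beside -0.02 over all tested probes. Chrne and Ache entered the test through EXO-Post BSA alone, since under 75% of the EXO-Post Palm arrays measured them well above background, so these counts and the median describe the tested probes and support no direction.

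**Figure D1:**
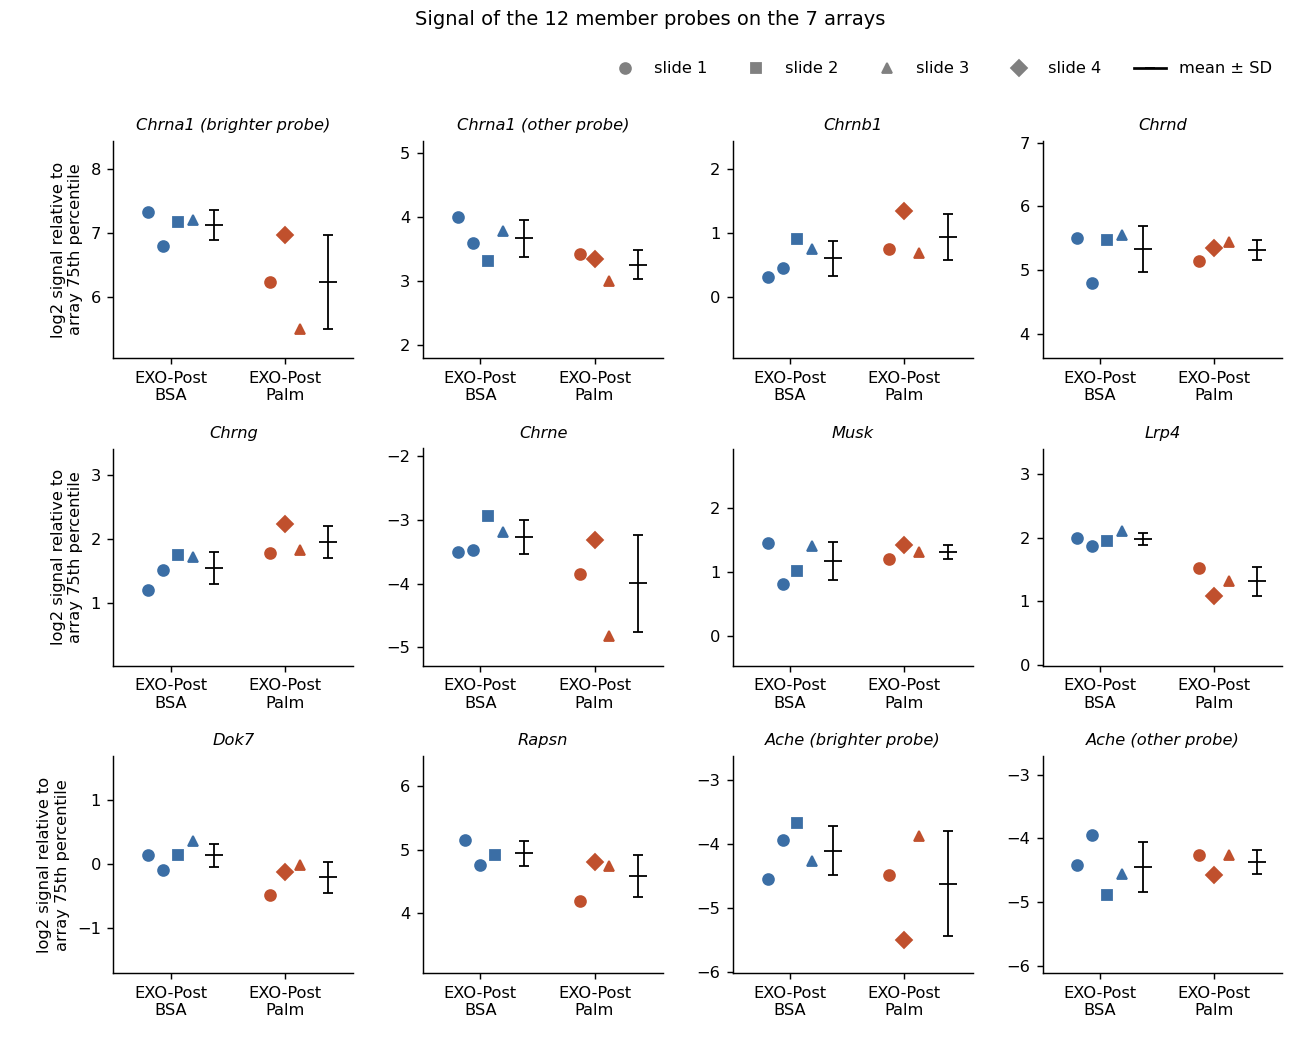
Each panel shows 1 probe, with the log2 signal relative to the array's 75th percentile on the y axis, 4 EXO-Post BSA arrays (blue) and 3 EXO-Post Palm arrays (red), symbols for the 4 slides, and mean ± SD to the right of each group. All panels span the same height. Lrp4 is the panel with a clear gap between the groups, 1.87 to 2.10 against 1.09 to 1.53, while Chrna1, Chrne and the brighter Ache probe spread widest within EXO-Post Palm.

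Arrays shared slides unevenly. Replicate 1 of EXO-Post Palm shared slide 1 with the first 2 replicates of EXO-Post BSA, and its replicate 3 shared slide 3 with replicate 4 of EXO-Post BSA. The other 2 arrays were each the single array used of their slide. The 75th percentile of the processed intensity ran from 725.7 to 1159 with EXO-Post BSA and from 549.4 to 1621 with EXO-Post Palm, and no spot was saturated. The 2 slides with both groups gave differences of their own, which stand beside each tested probe. With slide as a block in the fit 0 of the 11 probes passed, against 0.528% of all tested probes. Without adjustment 2 did in that fit (limma), Chrna1 and Chrne, against 9.71%, and Chrne is one of the probes tested through EXO-Post BSA alone. The labels call the samples biological replicates.

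Chrna1, the subunit that carries most of the acetylcholine binding site, was read by 2 probes, both lower on average with EXO-Post Palm. The brighter, A_52_P533707 (chr2:73404112-73404171, mm9), gave 7.33, 6.80, 7.17 and 7.21 with EXO-Post BSA and 6.24, 6.97 and 5.50 with EXO-Post Palm, in the order of the replicate numbers, as throughout. EXO-Post Palm replicates 1 and 3 were below all EXO-Post BSA arrays, whereas replicate 2 lay among them. The means were 7.13 ± 0.23 (SD, n = 4) and 6.24 ± 0.73 (SD, n = 3), a log2 difference of -0.89 (SE 0.337, 95% interval -1.66 to -0.12, limma adjusted p = 0.431), or 1.85-fold lower. Within slide 1 the difference was -0.83 and within slide 3 -1.71, and with slide as a block it was -1.20 (limma adjusted p = 0.272). Without EXO-Post Palm replicate 3 it was -0.52 (limma adjusted p = 0.779), and without replicate 2 it was -1.26 (limma adjusted p = 0.132). Permuting the group labels exactly, over 35 splits, gave p = 0.0571 (2-sided), beside an unadjusted limma p = 0.0277.

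The other Chrna1 probe, A_55_P2130987 (chr2:73401389-73401448), read 4.00, 3.60, 3.31 and 3.78 with EXO-Post BSA and 3.43, 3.35 and 3.00 with EXO-Post Palm. The groups overlapped through EXO-Post BSA replicate 3. The difference was -0.41 (SE 0.234, 95% interval -0.95 to 0.12, limma adjusted p = 0.605), smaller than with the brighter probe, and the same array, EXO-Post Palm replicate 3, was lowest on both. Within slides 1 and 3 it was -0.37 and -0.77.

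Chrnb1, the beta subunit, was read by a probe that crosses a splice junction (A_51_P475342, chr11:69598674-69599242). It gave 0.30, 0.45, 0.90 and 0.74 with EXO-Post BSA and 0.75, 1.34 and 0.69 with EXO-Post Palm. Only EXO-Post Palm replicate 2 stood above all EXO-Post BSA arrays. The difference was 0.33 (SE 0.252, 95% interval -0.24 to 0.91, limma adjusted p = 0.698). It was 0.38 within slide 1, -0.05 within slide 3, 0.20 with slide as a block and 0.12 without EXO-Post Palm replicate 2.

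Chrnd, the delta subunit, had nearly equal means. Its probe A_55_P2110548 (chr1:89096585-89096644) read 5.51, 4.80, 5.47 and 5.56 with EXO-Post BSA and 5.15, 5.35 and 5.45 with EXO-Post Palm. The EXO-Post Palm arrays all lay inside the EXO-Post BSA range, whose low end was replicate 2. The difference was -0.02 with an interval of -0.58 to 0.54 (limma adjusted p = 0.987). Within slides 1 and 3 it was -0.01 and -0.11.

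Chrng, the fetal subunit, was higher on every EXO-Post Palm array than on every EXO-Post BSA array, but only just. Its probe gave 1.20, 1.52, 1.75 and 1.72 with EXO-Post BSA and 1.78, 2.24 and 1.84 with EXO-Post Palm. The highest control array and the lowest EXO-Post Palm array were thus almost level. Groups that did not overlap with EXO-Post Palm higher made up 5.39% of all tested probes. The means of 1.55 ± 0.25 (SD, n = 4) and 1.95 ± 0.25 (SD, n = 3) differed by 0.41 (SE 0.228, 95% interval -0.11 to 0.93, limma adjusted p = 0.600). The difference was 0.42 within slide 1, 0.12 within slide 3 and 0.27 without EXO-Post Palm replicate 2.

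Chrne, the adult subunit, was dim. Its probe gave -3.51, -3.47, -2.94 and -3.19 with EXO-Post BSA and -3.85, -3.32 and -4.82 with EXO-Post Palm, and it was well above background on all 4 EXO-Post BSA arrays and on 2 of 3 EXO-Post Palm arrays. The low array was EXO-Post Palm replicate 3, where the processed intensity was 19.4, compared with 64.9 to 113 on the other 6 arrays. The means of -3.28 ± 0.27 (SD, n = 4) and -4.00 ± 0.76 (SD, n = 3) differed by -0.72 (SE 0.351, 95% interval -1.52 to 0.08, limma adjusted p = 0.547). It was -0.36 within slide 1, -1.63 within slide 3 and -0.31 without EXO-Post Palm replicate 3. With normexp it was -0.16, with local background subtracted -0.15 and in the authors' processed values -0.25.

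The question whether the fetal and adult subunits moved unequally was put to the difference between their log2 signals on the same array, in which the scaling of the array cancels. Chrng minus Chrne was 4.71, 4.99, 4.69 and 4.91 with EXO-Post BSA and 5.63, 5.56 and 6.66 with EXO-Post Palm. The groups did not overlap, and the gap between the highest EXO-Post BSA and the lowest EXO-Post Palm array was 0.57. The 4 EXO-Post BSA arrays lay close together, although Chrng itself varied more among them. The means were 4.82 ± 0.15 (SD, n = 4) and 5.95 ± 0.62 (SD, n = 3), and they differed by 1.13 (exact permutation of labels, 2-sided p = 0.0286, the lowest possible with 35 splits). It was 0.78 within slide 1, 1.75 within slide 3 and 0.77 over all slides without EXO-Post Palm replicate 3. Both the value and the p use a Chrne signal that was not well above background on that array and that was tested through EXO-Post BSA alone. They therefore describe these arrays and support no conclusion on the 2 subunits. All 16 alternatives kept EXO-Post Palm higher, with differences of 0.47 to 1.32. Scaling by the median and keeping marked spots could not change this difference (1.13 in both) and add no support. Slide as a random block repeated 1.13 without a test. The call was lost with slide as a block (1.20, exact permutation p = 0.167) and with the replicate number as a block (1.16, exact permutation p = 0.25), where these are the smallest p possible.

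The size changed with the processing, and the steps that differ between these settings were not varied one by one. It was 0.49 with normexp and 0.59 in the authors' processed values (exact permutation p = 0.0286 for both), and 0.47 with local background subtracted and a floor (exact permutation p = 0.0571). The difference sets 2 probes against each other and does not tell which of them changed. Neither gene passed alone, and the part of the dim Chrne signal in the shift was not tested. Chrnb1 minus Chrne, formed the same way, was 3.80 to 3.93 with EXO-Post BSA and 4.60 to 5.51 with EXO-Post Palm. By contrast, Chrna1 minus Chrne overlapped between the groups (10.10 to 10.84 and 10.09 to 10.33), and so did Chrnd minus Chrne (8.28 to 9.02 and 8.67 to 10.27). All of these share the Chrne values.

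**Figure D2:**
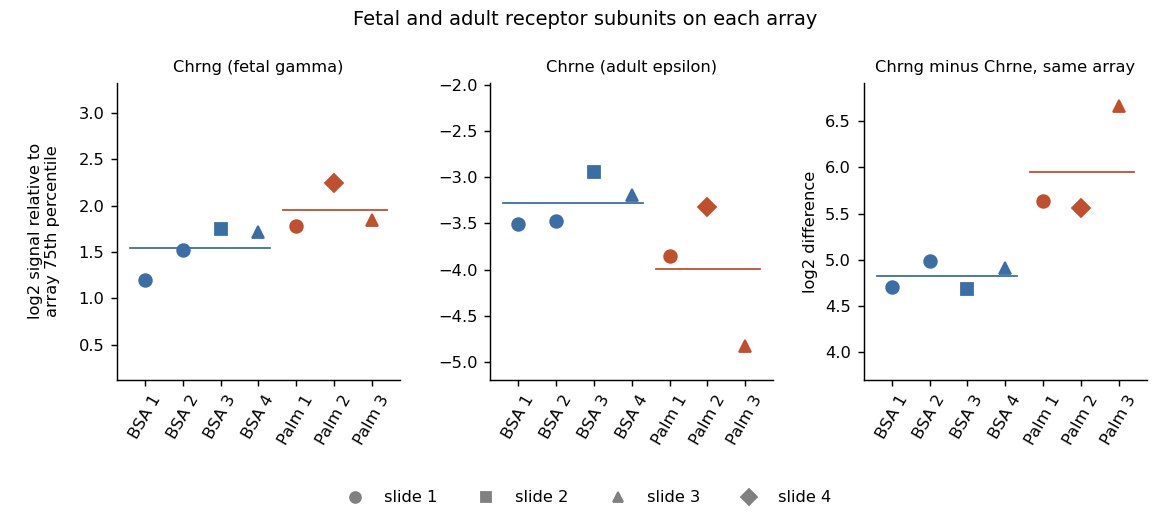
The left and middle panels show the log2 signal of Chrng and of Chrne on each array relative to its 75th percentile, and the right panel shows their log2 difference on the same array. Symbols mark slides, colours the groups (blue EXO-Post BSA, red EXO-Post Palm) and lines the group means. In the right panel the EXO-Post BSA arrays lie at 4.69 to 4.99 and the EXO-Post Palm arrays at 5.56 to 6.66, the highest being the array with the dimmest Chrne.

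Among the clustering genes, Lrp4, the agrin receptor on the muscle membrane, had groups that did not overlap. Its probe A_55_P1967168 (chr2:91353566-91353625) gave 2.00, 1.87, 1.95 and 2.10 with EXO-Post BSA and 1.53, 1.09 and 1.32 with EXO-Post Palm. All 3 EXO-Post Palm arrays lay below all 4 EXO-Post BSA arrays, as for 5.87% of all tested probes. The means were 1.98 ± 0.10 (SD, n = 4) and 1.31 ± 0.22 (SD, n = 3), a difference of -0.67 (SE 0.198, 95% interval -1.12 to -0.22, limma adjusted p = 0.285), or 1.59-fold lower. The difference was -0.40 within slide 1, -0.78 within slide 3 and -0.57 with slide as a block (limma adjusted p = 0.541), and it stayed between -0.78 and -0.56 over 21 alternatives. The exact permutation of labels gave p = 0.0286, the lowest possible with 35 splits, beside an unadjusted limma p = 0.00874.

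Musk, the receptor kinase that Lrp4 activates, read 1.45, 0.82, 1.02 and 1.40 with EXO-Post BSA and 1.21, 1.42 and 1.31 with EXO-Post Palm (probe A_55_P2130600, chr4:58387070-58387129). The EXO-Post Palm values lay within the spread of EXO-Post BSA. The difference was 0.14 with an interval of -0.38 to 0.65 (limma adjusted p = 0.872). It was 0.07 and -0.09 within slides 1 and 3, 0.00 with slide as a block, 0.01 with normexp and 0.02 without EXO-Post BSA replicate 2.

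Dok7, the adaptor that activates MuSK from inside the cell, read 0.14, -0.09, 0.14 and 0.36 with EXO-Post BSA and -0.49, -0.12 and -0.02 with EXO-Post Palm (A_55_P2127258, chr5:35430414-35430473). The groups overlapped between EXO-Post BSA replicate 2 and EXO-Post Palm replicate 3. The difference was -0.35 (SE 0.214, 95% interval -0.83 to 0.14, limma adjusted p = 0.634). It was -0.51 and -0.38 within slides 1 and 3, and -0.21 without EXO-Post Palm replicate 1. With normexp and with local background subtracted it was 0.00, and in the authors' processed values -0.03.

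Rapsn, the scaffold that packs receptors into clusters, read 5.15, 4.76 and 4.91 in the first 3 EXO-Post BSA replicates and 4.20, 4.80 and 4.75 with EXO-Post Palm (A_55_P2087322, chr2:90885826-90885885). The spot on EXO-Post BSA replicate 4 was marked as an outlier by the scanner software and left out. The groups overlapped, with EXO-Post Palm replicate 1 lowest. The difference was -0.35 (SE 0.256, 95% interval -0.95 to 0.24, limma adjusted p = 0.688). It was -0.13 with that spot kept, -0.09 with normexp or in the authors' processed values, and -0.16 without EXO-Post Palm replicate 1. With slide as a block it was -0.75, as within slide 1, and slide 3 gave none.

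Ache was close to background with both of its probes. The brighter, A_55_P2109327 (chr5:137735513-137735572), read -4.55, -3.93, -3.66 and -4.26 with EXO-Post BSA and -4.48, -5.50 and -3.87 with EXO-Post Palm, and it was well above background on 3 of 4 and 1 of 3 arrays. The other, A_55_P2109326 (chr5:137733122-137733181), lay between -4.89 and -3.94 with EXO-Post BSA and between -4.58 and -4.26 with EXO-Post Palm, was well above background on 2 arrays of each group and was not tested. The groups overlapped on both. The difference of the brighter probe was -0.52 with an interval of -1.41 to 0.37 (limma adjusted p = 0.698), turning to 0.03 with slide as a block. It was -0.24 within slide 1, 0.40 within slide 3 and -0.07 without EXO-Post Palm replicate 2, and -0.13 with normexp.

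**Figure D3:**
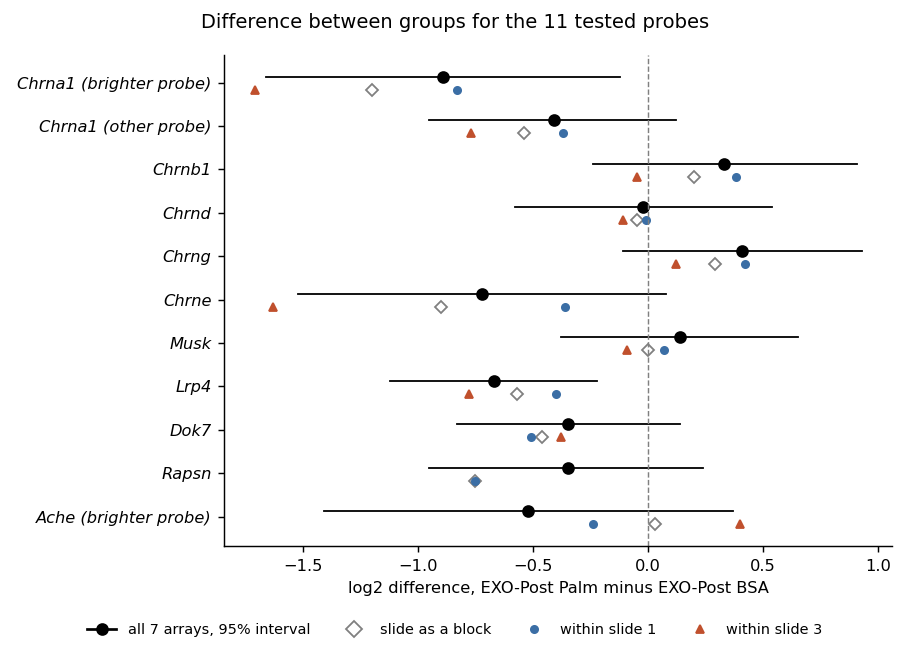
The x axis gives the log2 difference, EXO-Post Palm minus EXO-Post BSA, for each of the 11 tested probes. Black points and lines are the estimate over all 7 arrays with its 95% interval, open diamonds the estimate with slide as a block, and small symbols the differences within slides 1 and 3, of which Rapsn has the former only. The interval leaves out 0 for the brighter Chrna1 probe (-1.66 to -0.12) and for Lrp4 (-1.12 to -0.22), and no adjusted p was under 0.05.

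In size the differences of the brightest probes ran from Chrna1 (-0.89) through Chrne (-0.72), Lrp4 (-0.67), Ache (-0.52), Dok7 (-0.35), Rapsn (-0.35), Chrnd (-0.02), Musk (0.14) and Chrnb1 (0.33) to Chrng (0.41). The intervals of neighbours in this order overlapped throughout. Chrna1, Chrnb1, Chrnd and Chrng, which make up the fetal receptor, lay on both sides of 0, with alpha at one end of the order and gamma at the other.

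The probes whose pattern over the 7 arrays was most like that of a member were sought among 21133 tested probes, by Pearson correlation. Those most like Chrna1 were Itga9 (r = 0.988), an integrin subunit, Grhl3 (r = 0.985), a grainyhead-like transcription factor, and Mtmr1 (r = 0.985), a myotubularin-related phosphatase. For Chrng they were S100a2 (r = 0.994), an unnamed transcript of the array annotation (r = 0.991) and Sae1 (r = 0.991), a subunit of the SUMO-activating enzyme. For Chrne they were Tjp3 (r = 0.991), a tight junction protein, Echdc1 (r = 0.990), an enzyme of the enoyl-CoA hydratase family, and BC099450 (r = 0.987), known by its clone name. These are the highest values out of so many probes over only 7 points, which share 2 groups and 4 slides, and they are given as a description.

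Genes that act with the members were counted from lists, with 1 probe per gene. The partners of agrin, MuSK and rapsyn signalling had 21 tested genes, of which 9 had higher and 12 lower means with EXO-Post Palm, 0 passed the threshold and the median difference was -0.09. The highest was Agrn, agrin itself, at 0.44 (limma adjusted p = 0.560). The lowest was Pdzrn3, a ubiquitin ligase that acts on MuSK, which read 1.66 to 1.95 with EXO-Post BSA and 0.67 to 1.05 with EXO-Post Palm. Its groups did not overlap, as for 5.87% of all tested probes in this direction, with a difference of -0.94 (SE 0.202, limma adjusted p = 0.122).

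The dystrophin and utrophin complex, which ties the membrane to the cytoskeleton, had 18 tested genes, 8 higher and 10 lower, with a median of -0.02. Its ends were Lama4, a synaptic laminin chain, at 0.72 (limma adjusted p = 0.312) and Utrn, the dystrophin relative enriched at junctions, at -0.40 (limma adjusted p = 0.625). Among 9 tested genes of neuregulin and ETS synaptic transcription, 3 were higher and 6 lower, with a median of -0.21. Etv5, an ETS factor of muscle synaptic genes, stood at 0.72 (limma adjusted p = 0.434) and Nrg1, neuregulin, at -0.55 (limma adjusted p = 0.478). Gabpa, the subunit of GABP that binds the N-box, stood at -0.21 (limma adjusted p = 0.818). Erbb4 was well above background on no array, and 0 genes of either list passed.

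Of the proteins that anchor acetylcholinesterase, Colq, the collagen tail, stood at -0.42 (limma adjusted p = 0.625). Hspg2, perlecan, read 4.12 to 4.57 with EXO-Post BSA and 3.11 to 3.70 with EXO-Post Palm. It was the lowest of its list. Its groups did not overlap, as for 5.87% of all tested probes in this direction, with a difference of -0.89 (SE 0.229, limma adjusted p = 0.204). Prima1 and Bche were well above background on no array. The regulators that link electrical activity to the synaptic genes had 13 tested genes, 5 higher and 8 lower, with a median of -0.07 and 0 past the threshold. The lowest was Gadd45a, a gene induced by denervation, at -0.56 (limma adjusted p = 0.712). Myog, the E-box factor myogenin, stood at -0.07 (limma adjusted p = 0.942) and Myod1 at 0.03 (limma adjusted p = 0.986). By quantitative PCR, an assay separate from these array signals, the paper reports both as lower in cells given EXO-Post Palm. Of 11 nicotinic subunits of other tissues 7 were well above background on no array and 2 were tested, Chrna6 at 0.09 and Chrna2 at -0.17, with 0 called.

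Markers of the cells in the cultures were read beside these results. Of 19 tested myotube markers 3 had higher and 16 lower means with EXO-Post Palm, where 47.3% of all tested probes were higher. The median was -0.12, beside -0.02 over all tested probes, and 0 of these markers passed. Their summed level, in multiples of the 75th percentile, was 1560 to 1870 with EXO-Post BSA and 1260 to 1700 with EXO-Post Palm, so the ranges overlapped. Ckm, muscle creatine kinase, was the highest at 0.35 (limma adjusted p = 0.761) and Myh8, perinatal myosin, the lowest at -0.65 (limma adjusted p = 0.304). Of 9 tested myoblast markers 3 had higher and 6 lower means, with 0 called and a median of -0.04. Sums over the 11 such genes on the array were 29.7 to 35.2 with EXO-Post BSA and 27.4 to 36.8 with EXO-Post Palm. The tested genes ran from Heyl at -1.06 (limma adjusted p = 0.290) to Vcam1 at 0.51 (limma adjusted p = 0.504), and Myf5 was well above background on no array.

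Markers of dividing cells had the largest median difference of the lists. Of 15 such genes on the array 14 were tested, and Aurkb was well above background on no array. All 14 tested genes were higher on every EXO-Post Palm array than on any EXO-Post BSA array, against 5.39% of all tested probes, and 9 passed the adjusted threshold, against 0.533%. Ttk, not among the 9, was tested through EXO-Post Palm alone, being well above background on 0 EXO-Post BSA arrays. Its place in the 14 and in the median therefore supports no direction. The median difference was 2.37. The summed level of the 15 genes on the array was 7.69 to 8.53 with EXO-Post BSA and 26.5 to 66 with EXO-Post Palm. Nuf2, a kinetochore protein, was the highest at 2.89 (limma adjusted p = 0.0112) and Ccna2, cyclin A2, the lowest at 1.50 (limma adjusted p = 0.122). The others past the threshold were Mki67, Top2a, Ccnb1, Ccnb2, Aurka, Bub1, Plk1 and Cenpe, at 1.95 to 2.82. With replicate 1 of EXO-Post Palm left out 0 remained past the threshold, with replicate 3 left out 1, and all 14 kept an unadjusted p under 0.05 (limma) in both cases. Of 8 tested neuron and Schwann cell markers, 5 were higher and 3 lower with 0 called and a median of 0.11, from Snap25 at -1.61 (limma adjusted p = 0.0802) to Nefm at 0.93 (limma adjusted p = 0.164). Sums over the 12 genes of this list on the array, tested or not, were 7.02 to 13.8 with EXO-Post BSA and 4.25 to 7.01 with EXO-Post Palm. Snap25 had the highest signal among them on the EXO-Post BSA arrays, and read 2.20 to 3.46 there and 1.02 to 1.41 with EXO-Post Palm. The groups did not overlap for 2 tested genes higher and 2 lower, against 5.39% and 5.87% of all tested probes. Syt1 and Chat, which marks cholinergic neurons, were well above background on no array. The part of any of these cells in the member values was not tested, and in RNA of a whole culture fewer cells of a type cannot be told from less RNA per cell.

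**Figure D4:**
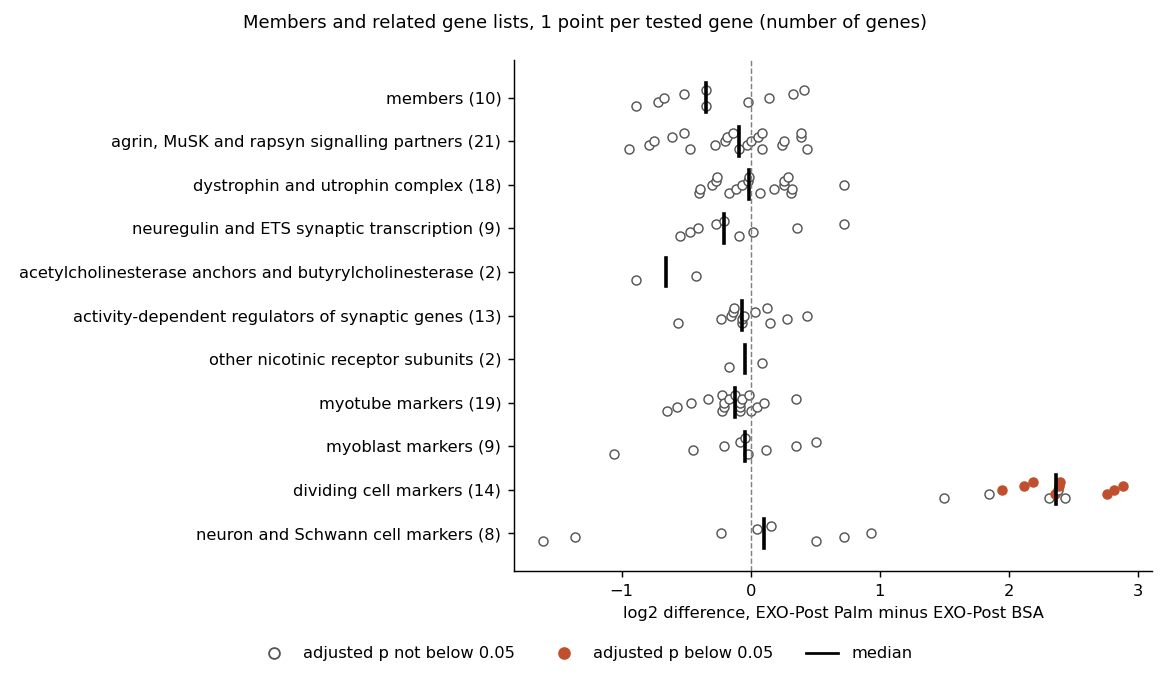
Each point is 1 tested gene by its brightest probe, placed on the x axis by its log2 difference, EXO-Post Palm minus EXO-Post BSA, with 1 row for the 10 members and 1 for each related list. Vertical bars are medians, filled points have an adjusted p below 0.05 (limma) and the number of genes is in parentheses. The members have a median of -0.35 and lie between -0.89 and 0.41, and filled points occur among the dividing cell markers, whose median is 2.37.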

How the data were processed

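For each of 7 arrays the authors deposited the scanner software's processed signal, an intensity with background subtracted and arrays not yet scaled to each other. They also deposited a table of processed log2 values, whose centring is not stated. Per the file headers, Feature Extraction 10.7.3.1 was used, and 11.5.1.1 for EXO-Post BSA replicate 3, where the submitters' processing notes name 9.1. That file lacks gene names, so probes were joined by name. Here the log2 signal minus the 75th percentile of 43020 non-control spots was used, without spots marked as outliers. Testing needed a signal well above background in at least 75% of either group's arrays. Positions are those of the array annotation (mm9).

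The comparison used limma 3.58.1 (R 4.3.3) on condition alone, with Benjamini-Hochberg adjustment over 21585 probes and an adjusted p of 0.05 as threshold, 2-sided. Single values received exact permutation tests. The fit was tested on simulated data. The number of arrays limits the precision.

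All probes of the 10 genes are named, and of each list the genes with the largest rise and fall and any that passed, each by its brightest probe. An item that this rule also covers is not reported here. Gabpa, Myog and Myod1 were added after their values were seen. The members and lists were chosen with earlier results of these data known. Alternatives covered background correction (normexp, or subtraction with a floor of 5, each with an offset of 50, on the median signal since 1 file has no mean signal), normalisation, the authors' values, the filter, slide or replicate number as a block, array weights, the fit, the t-test of the methods and each array left out.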

Additional observations from a re-analysis of the deposited data

Results flagged for a closer look

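In the Chrnd probe, EXO-Post BSA replicate 2 lay apart from its group, at 4.80 where the other 3 arrays read 5.47 to 5.56. It was 1 of 12 such groups looked at, and chance flags about 1 in 20.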

How the results depend on the processing

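In all alternatives run, 0 member probes passed the threshold. Chrna1, Chrnb1, Chrng, Chrne, Lrp4 and Rapsn kept their direction in each, while Dok7 and Musk came to 0.00 at 2 decimals in some. Of the values of single probes, 8 changed sign. Chrnd turned to 0.02 with quantile normalisation, 0.05 with the replicate block and 0.03 with array weights, and ran from -0.20 to 0.06 with 1 array left out, above 0 without EXO-Post BSA replicate 1, 3 or 4 or EXO-Post Palm replicate 1. Ache turned to 0.03 with slide as a block. The cause was not tested.

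The difference of Chrng minus Chrne stayed higher but missed the threshold with local background subtraction (0.47), with slide as a block (1.20, exact permutation p = 0.167) and with the replicate block (1.16, exact permutation p = 0.25), the latter 2 being the smallest p their arrangements allow. It was 0.77 to 1.32 with 1 array left out, where p cannot reach the threshold. All these values use Chrne, which was tested through EXO-Post BSA alone, so they support no conclusion on the 2 subunits. Each gene has 1 probe, so no other pair of probes exists. Keeping marked spots was an alternative chosen after seeing the data, and it moved no call.

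Over all probes, the 115 called became 181 with slide as a random block, 180 with array weights, 173 with a trended and robust variance, and 0 without the filter (1900 unadjusted), with the replicate block (1933 unadjusted) and with the methods' t-test after Benjamini-Hochberg adjustment (2108 unadjusted). With 1 array left out it was 4 to 228, being 4 without EXO-Post Palm replicate 3 and 7 without replicate 1. Same-numbered arrays did not deviate together (correlations of 0.122, -0.15 and -0.148), so the numbers were not taken as pairs. Chrne and both Ache probes are limited by signals close to background.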
